A study of Homo sapiens with 15 samples.

Results

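The genes described are 46 ligands and receptors of axon guidance, taken from the named list of Eph receptors, ephrins, netrins and their receptors, Slits, Robos, semaphorins, plexins and neuropilins, out of 20033 protein-coding genes of the annotation. All 46 were found in the annotation by symbol, and all 46 passed the filter on low values, leaving 18260 genes tested in all. DCC and EPHA3 passed it through KO1 alone, since their means over the other 12 libraries were 110 and 216 bases, under the minimum of 250. Chromatin accessibility had been profiled by ATAC-seq, in which a transposase cuts and tags open DNA, in RPTEC, an hTERT-immortalised line of human renal proximal tubule epithelium. The 15 libraries fell into 5 groups of 3: parental cells with intact SETD2 (WT), the knockout clones KO1 and KO2, and the rescue clones Rescue1 and Rescue2. SETD2 is the methyltransferase that trimethylates lysine 36 of histone H3, and its gene is often mutated in clear cell renal carcinoma.

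KO1 and KO2 are each a single clone carrying frameshifts made with Cas9 in exon 3 of SETD2. The rescue clones are single colonies of knockout cells that received a FLAG-tagged full-length SETD2 by lentivirus and were selected with blasticidin, so they carry both the frameshifts and the transgene. The names that the study's quality table gives the rescue libraries carry the name of the KO2 clone, and values of rescue against KO2 are therefore given where they matter. The labels do not say whether the 3 libraries of a group came from separate cultures, so p-values measure the spread between libraries, which may be technical, and 3 libraries of a clone are not 3 independent clones. A peak list cannot show the frameshifts, and a peak lay at the SETD2 start in all 15 libraries.

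Axon guidance molecules are surface or secreted cues that steer cells and their processes. Eph receptors are tyrosine kinases that bind ephrins on a neighbouring cell, netrins act through DCC and the UNC5 receptors, Slits act through Robo receptors, and secreted class 3 semaphorins act through neuropilins and plexins. They are named for neurons but also act in the kidney, where Slit2 and Robo2 help to restrict the site at which the ureteric bud forms, and where semaphorins and ephrins act on vessels and podocytes.

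The libraries held 197527 (WT replicate 2) to 266011 peaks (Rescue2 replicate 1), covering 49.4 to 65.2 Mb. The peak lists hold no read counts, so read depth behind a single peak is unknown, and a region without a peak is one where none was called. The starts of the renal epithelial genes PAX8, PAX2, CDH16, EPCAM, KRT8 and KRT18 each had a peak in 15 of 15 libraries. Of 5 proximal tubule markers GGT1 had one in 15 libraries and LRP2 in 5, while CUBN, AQP1 and SLC34A1 had none. Among markers of other cells, the fibroblast gene DCN had a start peak in 0 of 3 WT, 6 of 6 KO and 1 of 6 rescue libraries, COL1A1 in 2 KO libraries, and the endothelial gene CDH5 in 5 of 6 rescue libraries alone. LUM had one in 12 libraries, PDGFRB, KDR, SNAP25 and SYT1 in 15, and PECAM1, PTPRC, CD3E and RBFOX3 in none. The part of these differences in the results below was not tested.

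Called regions whose peaks were placed most surely are shown first, as examples from the comparison of KO with WT. A region is a stretch merged from the peaks of all libraries, and it was counted as gained or lost only when every library of the one group, and no library of the other, held a peak in it. The 6 windows of 200 bases, 1 a gene, are taken around the middle of the regions with the highest minimum −log10 q outside UNC5D, a measure of how surely the peak caller placed a peak, and are written from the plus strand of hg38. The minimum ran over every library with a peak in the region, rescue included. It ranks how surely peaks were placed, not the size of a change. Capitals mark letters that match a searched motif on either strand. The first 3 windows had a peak in all 6 KO libraries and none of the 3 WT libraries, and each kept it in 6 of 6 rescue libraries. They lie in introns of the Slit ligand SLIT3, the netrin receptor UNC5B and the Slit receptor ROBO1.

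SLIT3, chr5:169142394-169142593: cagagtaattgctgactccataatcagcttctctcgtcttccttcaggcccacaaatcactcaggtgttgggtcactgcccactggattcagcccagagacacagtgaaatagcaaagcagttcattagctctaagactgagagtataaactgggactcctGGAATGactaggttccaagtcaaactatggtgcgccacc
UNC5B, chr10:71255851-71256050: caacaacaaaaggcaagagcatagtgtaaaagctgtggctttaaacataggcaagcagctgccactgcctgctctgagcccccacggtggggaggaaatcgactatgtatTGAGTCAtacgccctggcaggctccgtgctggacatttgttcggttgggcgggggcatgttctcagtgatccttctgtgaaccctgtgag
ROBO1, chr3:79467774-79467973: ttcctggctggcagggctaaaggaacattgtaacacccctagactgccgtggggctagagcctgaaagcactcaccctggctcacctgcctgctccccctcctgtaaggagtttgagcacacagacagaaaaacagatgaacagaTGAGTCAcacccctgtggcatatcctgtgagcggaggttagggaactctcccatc

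The next 3 had a peak in all 3 WT libraries and in none of the 6 KO or 6 rescue libraries. They lie in an intron of SEMA3E, upstream of SEMA3C and in an intron of SEMA3A, which encode secreted semaphorins. Some other lost regions, among them those of EPHA2 and EPHA10, had a peak in 6 of 6 rescue libraries.

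SEMA3E, chr7:83524369-83524568: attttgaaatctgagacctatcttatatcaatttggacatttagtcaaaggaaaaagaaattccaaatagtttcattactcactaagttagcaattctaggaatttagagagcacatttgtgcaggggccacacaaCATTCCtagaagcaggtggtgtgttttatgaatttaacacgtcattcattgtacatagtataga
SEMA3C, chr7:80924193-80924392: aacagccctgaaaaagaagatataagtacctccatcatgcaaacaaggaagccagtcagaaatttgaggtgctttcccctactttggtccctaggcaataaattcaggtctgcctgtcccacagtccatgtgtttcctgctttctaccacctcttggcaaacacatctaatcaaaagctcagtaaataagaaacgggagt
SEMA3A, chr7:84144205-84144404: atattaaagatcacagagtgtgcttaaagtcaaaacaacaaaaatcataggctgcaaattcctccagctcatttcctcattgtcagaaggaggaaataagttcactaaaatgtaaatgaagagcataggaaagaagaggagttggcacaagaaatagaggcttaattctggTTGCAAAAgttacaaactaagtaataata

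For rescue against KO, the window upstream of EPHA1 had a peak in 6 of 6 rescue libraries and in no WT or KO library. The intronic window of EPHA7 was occupied by a peak in 6 of 6 KO libraries but in none from WT or rescue cells.

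EPHA1, chr7:143415918-143416117: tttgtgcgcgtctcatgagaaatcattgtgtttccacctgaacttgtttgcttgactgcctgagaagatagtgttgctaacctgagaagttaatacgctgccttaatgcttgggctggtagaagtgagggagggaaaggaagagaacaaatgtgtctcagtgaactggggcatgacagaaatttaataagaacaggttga
EPHA7, chr6:93392111-93392310: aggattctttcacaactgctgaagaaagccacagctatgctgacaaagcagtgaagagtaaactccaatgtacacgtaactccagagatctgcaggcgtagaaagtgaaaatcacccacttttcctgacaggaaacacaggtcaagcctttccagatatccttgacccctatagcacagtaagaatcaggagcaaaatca

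The promoter of ROBO1 is shown because it had a peak in every KO library, no WT library and no rescue library. Its RefSeq promoter (GRCh38.p14, from 250 bases before to 50 after the start, minus strand) lies inside the gained region chr3:79767455-79768138 for most of its length and matched none of the motifs searched.
ROBO1 promoter, chr3:79767949-79768248: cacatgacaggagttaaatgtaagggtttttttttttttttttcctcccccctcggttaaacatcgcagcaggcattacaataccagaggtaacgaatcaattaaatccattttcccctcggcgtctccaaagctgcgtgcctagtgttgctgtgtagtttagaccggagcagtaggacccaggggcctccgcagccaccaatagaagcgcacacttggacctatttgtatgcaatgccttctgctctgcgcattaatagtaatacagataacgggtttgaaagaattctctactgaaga

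Of the motifs searched on both strands in the same 200-base windows, the AP-1 motif TGANTCA occurred in 21 of 68 regions gained in KO (30.9%) and 3 of 28 lost (10.7%), beside 27.5% of all 295008 regions. The TEAD motif GGAATG occurred in 6 gained (8.82%) and 5 lost regions (17.9%), beside 15.5% of all. The RUNX motif TGTGGT occurred in 19 gained (27.9%) and 3 lost regions (10.7%), beside 20.7%, and the C/EBP motif TTGCNNAA, whose matches can overlap those of the octamer, occurred in 13 (19.1%) and 4 (14.3%), beside 10.4%. The octamer ATGCAAAT was in 2 gained and 0 lost regions (1.39% of all), and the ETS motif CCGGAAG in 0 of either (1.48%). These are letter matches in windows with a median GC content of 44.8% (gained), 46.2% (lost) and 47.5% (all), with no test.

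**Figure D1:**
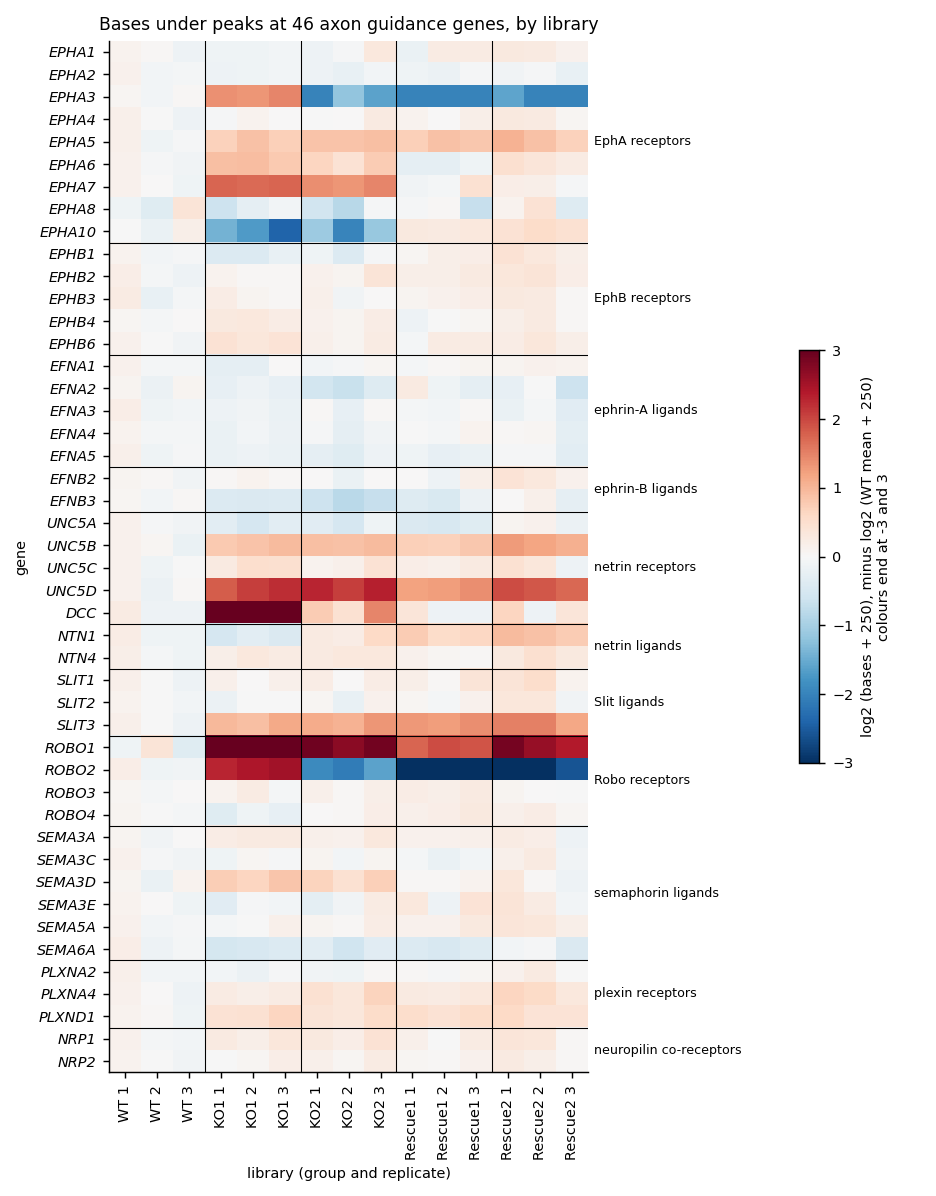
Each cell gives log2 of bases under peaks plus 250 in a library, minus the same for the WT mean, for the 46 genes (rows, grouped by role) in the 15 libraries (columns). ROBO1, UNC5D, EPHA7, SLIT3 and UNC5B are red in all KO libraries, EPHA10 is blue in them, and ROBO2, EPHA3 and DCC differ between KO1 and KO2.

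The first question is how accessibility at these genes differs between the SETD2 knockout clones and WT. WT is the parental line and each KO is a single clone, so knockout and cloning cannot be told apart. The level of a gene is the number of bases under called peaks in its body plus 10 kb on each side. In KO against WT, 17 of 46 genes rose (37.0%) and 7 fell (15.2%), beside 15.1% of all genes higher and 13.1% lower (limma, adjusted p under 0.05 over all genes). The median log2 difference was 0.08 over the 46 and −0.01 over all genes tested. Without DCC and EPHA3, which had to differ to pass the filter, 16 of 44 were higher (36.4%) and 7 lower (15.9%). KO1 alone against WT gave 17 higher and 7 lower (12.4% and 11.8% of all genes) and KO2 alone 14 and 8 (13.4% and 9.29%). With bases scaled to each library's total the counts were 16 higher and 16 lower, beside 13.8% and 40.6% of all genes, and the median over all genes moved to −0.11. Without WT replicate 3 there were 11 higher, and without WT replicate 1 there were 4 lower. The matching shares of all genes were not counted.

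These genes are long, with a median of 169 kb against 27.5 kb over all protein-coding genes, and long genes moved more often. Of genes of at least 100 kb, a class chosen after the values were seen, 28.2% were higher in KO and 9.5% lower. Of the 28 axon guidance genes of that length 13 rose (46.4%) and 3 fell (10.7%), and of the 18 shorter ones 4 rose (22.2%) and 4 fell (22.2%). Per kilobase of window, the 15-library mean ran from 0.414 bases under peaks for DCC to 133 for EFNA1, with a median of 29.5 against 33.9 over all genes.

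The second question is how the rescue clones, in which SETD2 was put back, differ from KO. The transgene, the further cloning and the blasticidin selection cannot be told apart here. In rescue against KO, 9 genes rose (19.6%) and 9 fell (19.6%), beside 28.2% of all genes higher and 6.78% lower, with a median log2 difference of 0.06 over the 46 and 0.09 over all genes. Without DCC and EPHA3 9 were higher (20.5%) and 7 lower (15.9%) of 44. Of the 28 long genes 5 rose (17.9%) and 8 fell (28.6%), beside 26.1% and 12.6% of all genes of that length. Without Rescue2 replicate 3 the number that rose was 20, with no share of all genes counted. Against KO2 alone 5 genes were higher and 7 lower in rescue (16.6% and 5.2% of all genes), and against WT 13 were higher and 3 lower (21.9% and 4.07%). Comparisons with KO share the KO libraries, and comparisons with WT share the WT libraries, so agreement or opposition between them is no separate result.

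**Figure D2:**
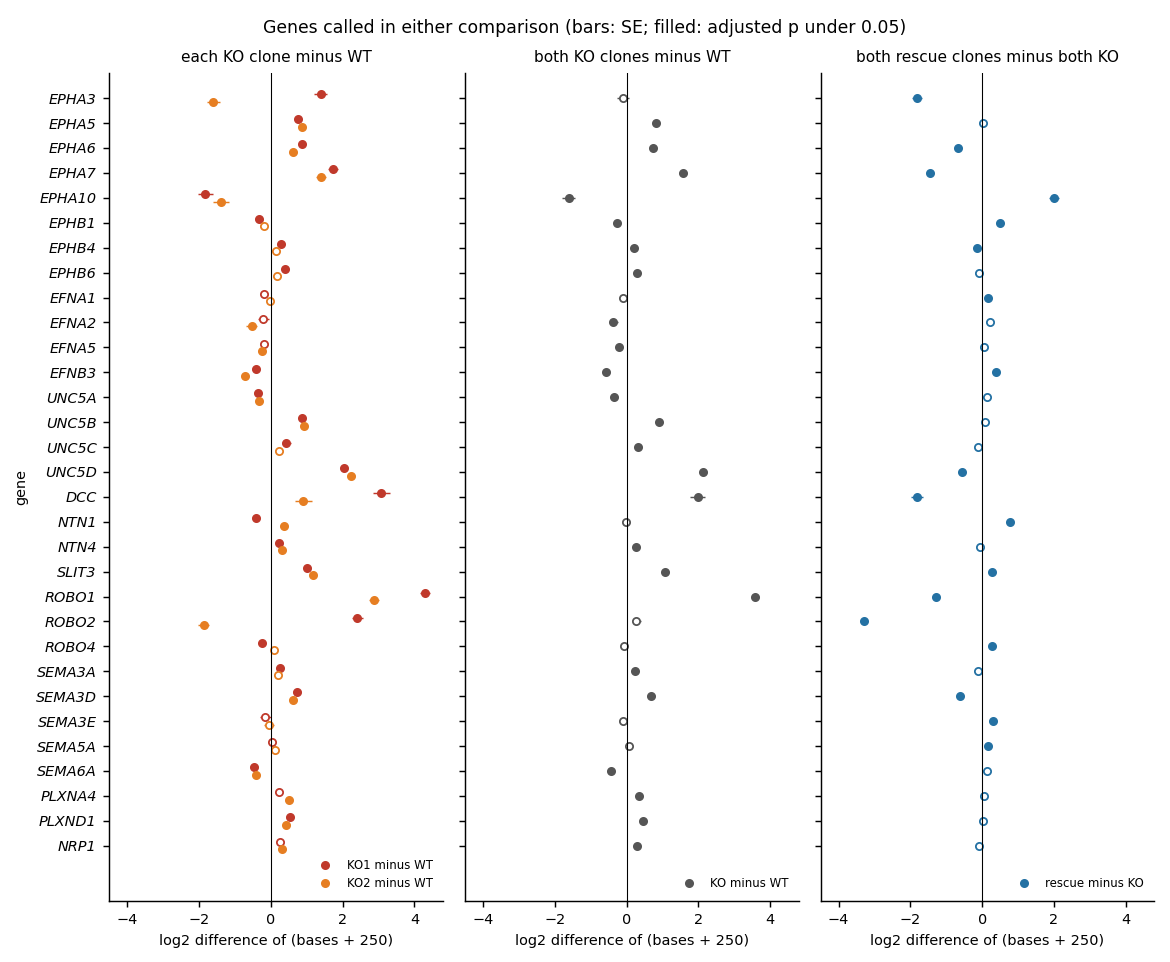
Log2 differences with SE for the genes called in either comparison, by role, for each KO clone minus WT (left), both KO clones minus WT (middle) and both rescue clones minus both KO clones (right). Filled points passed an adjusted p of 0.05. In EPHA3, ROBO2 and NTN1 the KO clones lie on opposite sides of 0, and the pooled KO difference is near 0.

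Slits and their receptors held the largest differences. ROBO1, a Slit receptor whose gene spans chr3:78597239-79767998, had 424, 718 and 320 bases under peaks in WT. It had 13090, 14416 and 13962 in KO1 and 5333, 4557 and 5222 in KO2. Rescue1 had 2239, 2609 and 2490, and Rescue2 5145, 4264 and 3606. Every KO and rescue library lay above every WT library, KO1 lay far above the rest, and the Rescue2 libraries overlapped those of KO2. KO exceeded WT by 3.58 ± 0.12 on the log2 scale (SE, limma adjusted p = 3.6e-16), and rescue lay 2.28 above WT (limma adjusted p = 1.71e-12). KO1 alone exceeded WT by 4.29 ± 0.14 and KO2 alone by 2.88 ± 0.14 (limma adjusted p = 2.15e-16 and 3.31e-13). The SE and p of a pooled difference, here and below, hold the spread within clones and not that between clones.

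Against both KO clones the rescue clones were lower at ROBO1 by −1.30 ± 0.10 (limma adjusted p = 5.52e-10), and against KO2 alone by −0.59 (limma adjusted p = 0.000904). Its 12 gained regions were the most of any of the genes, and 2 of them (chr3:79467685-79468062 and chr3:79651528-79651795) had a peak in 6 of 6 rescue libraries. The gained promoter region had none in rescue. A second RefSeq start of ROBO1, at chr3:79019410-79019709, had a peak in 2 of 3 WT libraries and in all 12 others, so the all-or-none change concerned the upstream start. In the plot of peaks along the gene, the ticks of KO1 run over its whole length, while those of WT stand at few places.

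**Figure D3:**
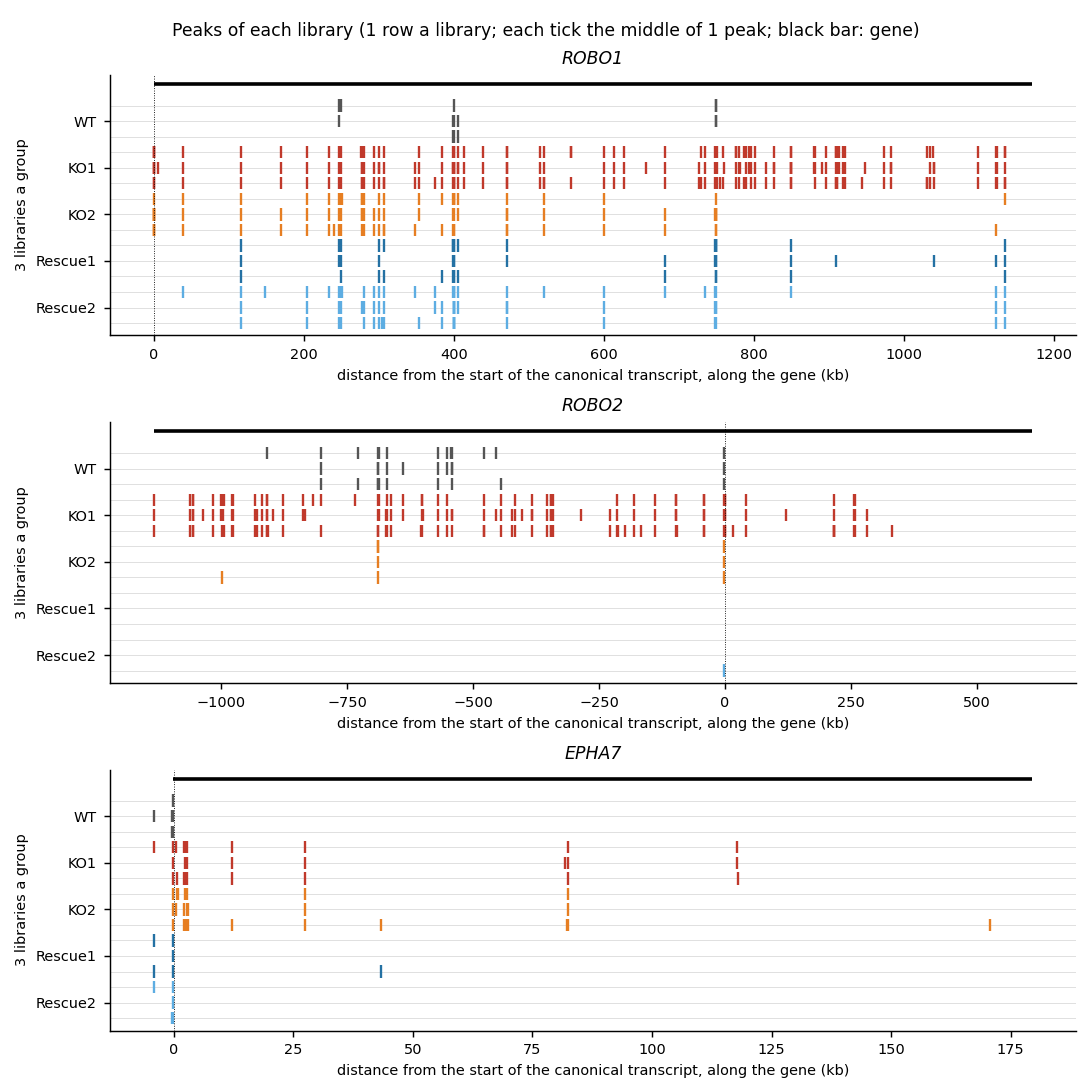
Peaks of each library (1 row a library, each tick the middle of 1 peak) against distance in kb from the start of the canonical transcript, for ROBO1, ROBO2 and EPHA7, with the gene as a black bar. At ROBO1 the number of peaks is 3 to 6 in WT, 72 to 78 in KO1, 25 to 30 in KO2, 14 to 17 in Rescue1 and 21 to 29 in Rescue2.

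ROBO2, the receptor through which Slit2 acts in the early kidney, went opposite ways in the KO clones. It had 2247, 1756 and 1781 bases in WT, 10302, 11402 and 12273 in KO1, and 328, 257 and 468 in KO2. Rescue1 had 0 in all 3 libraries, and Rescue2 had 0, 0 and 109. KO1 lay above all WT libraries and KO2 below them, with log2 differences of 2.41 ± 0.15 and −1.87 ± 0.15 (limma adjusted p = 1.24e-11 and 1.34e-09). The difference between the clones was −4.28 (limma adjusted p = 1.51e-15), and the pooled KO difference of 0.27 did not pass (limma adjusted p = 0.114).

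Rescue was lower at ROBO2 than KO by −3.30 ± 0.10 (limma adjusted p = 3.84e-16), than KO2 by −1.16 (limma adjusted p = 4.31e-07) and than WT by −3.03 (limma adjusted p = 2.43e-14). KO2 and both rescue clones lay below every WT library. The RefSeq start at chr3:77039849-77040148 had a peak in 3 of 3 KO1 libraries and no other, and the start at chr3:76310630-76310929 in none of 15. About 1.4 to 1.6 kb before the first of these starts, every WT, KO1 and KO2 library had a peak. In rescue only Rescue2 replicate 3 had one there. An intronic region, chr3:76352072-76352447, had a peak in all 9 WT and KO libraries and in no rescue library. ROBO4, an endothelial Robo, was lower in KO1 than WT (−0.24, limma adjusted p = 0.0436) and higher in rescue than KO (0.27 ± 0.06, limma adjusted p = 0.00168), though not than KO2 alone (0.10, limma adjusted p = 0.352). ROBO3 passed neither test, and its canonical start had no peak in any library.

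SLIT3, a secreted Slit ligand, rose in both clones and stayed high. It had 7292, 6436 and 5850 bases in WT, 12975, 12427 and 14593 in KO1 and 14410, 13623 and 16649 in KO2. Rescue1 had 16449, 16038 and 17536, and Rescue2 19067, 19021 and 14822. No KO or rescue library fell as low as any WT library. The excess of KO over WT was 1.08 ± 0.09 (limma adjusted p = 2.53e-09), rescue exceeded KO by 0.28 ± 0.07 (limma adjusted p = 0.00528) and WT by 1.36 (limma adjusted p = 9.4e-11). Against KO2 alone the rescue difference was 0.20 and did not pass (limma adjusted p = 0.117).

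SLIT3 had 9 gained regions, all intronic, and 8 of them held a peak in 6 of 6 rescue libraries and the last in 5 of 6. They lay from 4370 bases to 449019 bases downstream of the start of the gene. A further intronic region, chr5:168986598-168986766, had a peak in 6 of 6 rescue libraries and in no WT or KO library. SLIT1 and SLIT2, the other Slit ligands, did not pass in either comparison, with KO differences of 0.13 ± 0.09 and −0.04 ± 0.09. SLIT1 had 1 gained and 1 lost region in KO, and the lost one, chr10:97065227-97065472, had a peak in all 6 rescue libraries.

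**Figure D4:**
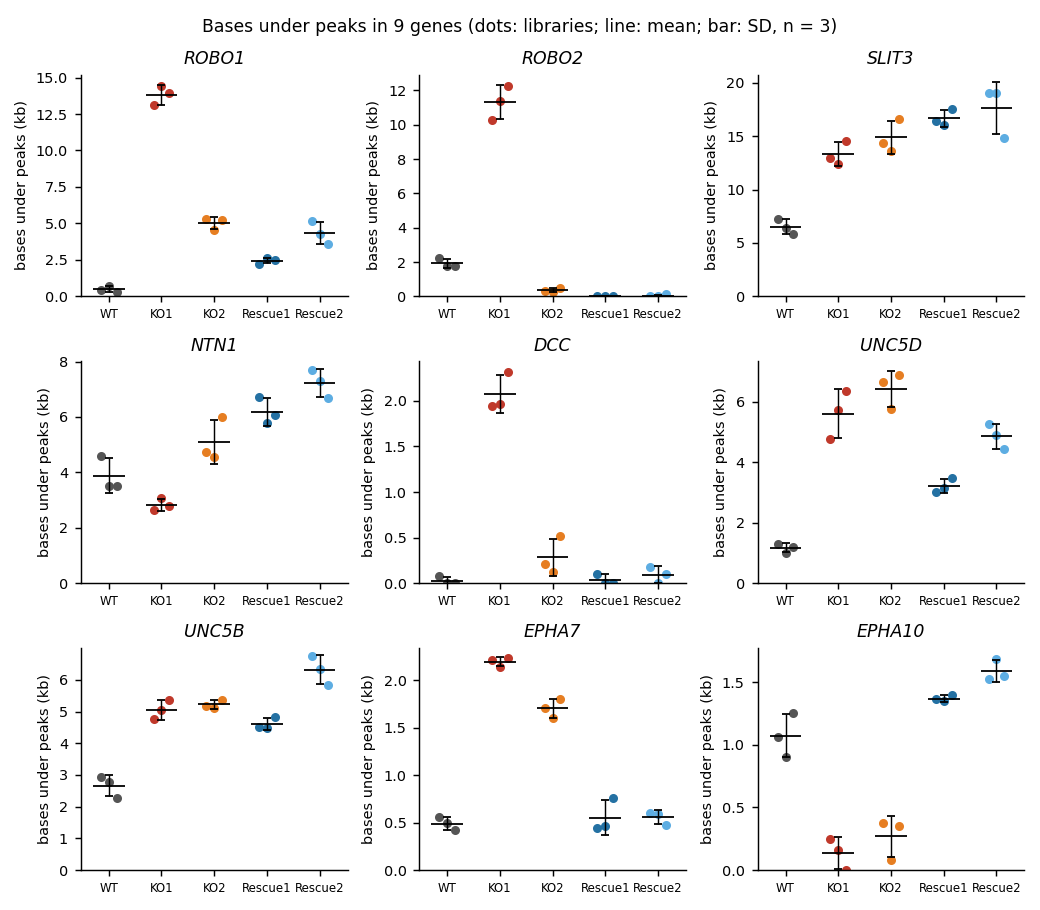
Bases under peaks in kb for 9 genes in WT, KO1, KO2, Rescue1 and Rescue2 (dots are libraries, lines means and bars SD, n = 3). SLIT3 and UNC5B stay above WT in rescue, EPHA7 and EPHA10 lie at or above their WT level in rescue, and ROBO2 and DCC are highest in KO1.

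The netrin receptors had 4 of 5 higher in KO (UNC5B, UNC5C, UNC5D and DCC) and 1 lower (UNC5A), beside 15.1% and 13.1% of all genes, and 28.2% and 9.5% of genes of at least 100 kb. DCC had to be high in KO1 to pass the filter, so it does not support the count of higher genes. UNC5D, a repulsive netrin receptor on chromosome 8, had 1302, 1008 and 1196 bases in WT, 4757, 5714 and 6361 in KO1 and 6666, 5746 and 6880 in KO2. Rescue1 had 3025, 3151 and 3485, and Rescue2 5254, 4886 and 4439. The KO libraries did not overlap WT, and rescue lay between, with Rescue1 below all KO libraries and Rescue2 reaching into the range of KO1. KO exceeded WT by 2.14 ± 0.09 (limma adjusted p = 1.86e-14), and rescue was below KO by −0.57 ± 0.07 (limma adjusted p = 2.47e-06) but above WT by 1.57 (limma adjusted p = 8.11e-12). Of its 9 gained regions 3 had a peak in 6 of 6 rescue libraries, and 1 lay in an exon. An intronic region of UNC5D with a peak in all KO and rescue libraries had a minimum −log10 q of 25.87, above those of the windows printed, and its sequence is not shown.

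UNC5B, a netrin receptor also found on vessels, had 2919, 2770 and 2286 bases in WT, 4752 to 5375 in the 6 KO libraries and 4469 to 6752 in the 6 rescue libraries. Neither KO nor rescue overlapped WT. The KO level was above WT by 0.90 ± 0.07 (limma adjusted p = 2.39e-09), rescue differed from KO by 0.07 ± 0.06 (limma adjusted p = 0.42) and lay 0.96 above WT (limma adjusted p = 1.28e-09). Of its 4 gained regions 3 had a peak in every rescue library, among them the window printed above. UNC5C was higher in KO by 0.33 ± 0.10 (limma adjusted p = 0.0193, a call lost without WT replicate 2 or 3 and in KO2 alone, 0.23, limma adjusted p = 0.175) and UNC5A lower by −0.34 ± 0.09 (limma adjusted p = 0.00408), and neither passed in rescue against KO.

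DCC, the attractive netrin receptor, had 77, 0 and 0 bases in WT, 1942, 1961 and 2316 in KO1 and 216, 126 and 514 in KO2. Rescue1 had 105, 0 and 0, and Rescue2 180, 0 and 105. DCC was tested only because of its KO1 level, so its fitted values are a description of that clone. The pooled KO difference was 1.99 ± 0.21 (limma adjusted p = 9.3e-08), and KO2 was lower than KO1 by −2.18 (limma adjusted p = 1.45e-06). KO1 on its own exceeded WT by 3.08 ± 0.24 (limma adjusted p = 8.84e-10). KO2 on its own exceeded WT by 0.90 ± 0.24 (limma adjusted p = 0.00774), with a mean of 285 bases against 25.7. A single region, chr18:52499090-52499350, was occupied in 6 of 6 KO libraries but in none from WT or rescue cells.

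Of the netrins, NTN1 went opposite ways in the KO clones and rose in rescue. It had 4603, 3503 and 3523 bases in WT, 2639, 3072 and 2801 in KO1, and 4717, 4566 and 5993 in KO2. Rescue1 had 6730, 5764 and 6052, and Rescue2 7709, 7306 and 6693. KO1 lay below all WT libraries (−0.41 ± 0.11, limma adjusted p = 0.00637), while KO2 was higher (0.37 ± 0.11, limma adjusted p = 0.0138) with ranges that overlapped. Rescue exceeded KO by 0.78 ± 0.08 (limma adjusted p = 3.75e-08), KO2 by 0.38 (limma adjusted p = 0.00439) and WT by 0.76 (limma adjusted p = 1.9e-06).

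NTN1 held 5 of the 17 regions gained in rescue, 1 upstream and 4 intronic, and none of the 5 had a peak in any WT or KO library. NTN4, a basement membrane netrin, was higher in KO by 0.27 ± 0.07 (limma adjusted p = 0.0065, lost without WT replicate 3) and did not pass in rescue. A short region near its start, chr12:95790979-95791164, had a peak in 3 of 3 WT, 0 of 6 KO and 4 of 6 rescue libraries, although a peak within 500 bp of the canonical start was called in all 15.

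Among the 9 EphA receptors, EPHA5, EPHA6 and EPHA7 rose in KO and EPHA10 fell. EPHA7 had 556, 491 and 421 bases in WT, 2211, 2141 and 2233 in KO1 and 1704, 1602 and 1804 in KO2. Rescue1 had 440, 459 and 761, and Rescue2 604, 591 and 472. The KO libraries lay above all others, and the rescue libraries overlapped WT. EPHA7 rose in KO by 1.57 ± 0.11 (limma adjusted p = 1.31e-10), rescue was below KO by −1.45 ± 0.09 (limma adjusted p = 2.1e-11), and rescue differed from WT by 0.11 (limma adjusted p = 0.501).

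All 3 gained regions of EPHA7 had a peak in no rescue library. The start of its canonical transcript had a peak in all 15 libraries, while 2 further RefSeq starts, chr6:93417111-93417410 and chr6:93417333-93417632, had one in 6 of 6 KO libraries and in no other, both overlapping the gained region chr6:93416602-93417539. EPHA6 had 2522 to 3032 bases in WT, 4924 to 5459 in KO1, 3788 to 4835 in KO2, 2224 to 2507 in Rescue1 and 3294 to 3942 in Rescue2. KO exceeded WT by 0.74 ± 0.08 (limma adjusted p = 1.99e-07) and rescue was below KO by −0.67 ± 0.07 (limma adjusted p = 4.07e-08). Over the gene body alone these differences were 1.45 and −1.08. The rescue clones differed by 0.58 (limma adjusted p = 0.000558), and 2 of the 4 gained EPHA6 regions had a peak in 3 of 3 Rescue2 and 0 of 3 Rescue1 libraries.

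EPHA10, a member with a kinase domain thought to be inactive, was the strongest decrease in KO. It had 1063, 903 and 1250 bases in WT, 246, 159 and 0 in KO1 and 373, 83 and 353 in KO2. Rescue1 had 1362, 1345 and 1398, and Rescue2 1523, 1685 and 1552. KO lay below all WT libraries, and rescue above all of them. KO was below WT by −1.61 ± 0.18 (limma adjusted p = 3.26e-07), rescue was above KO by 2.0 ± 0.15 (limma adjusted p = 4.26e-10), and the difference of 0.39 from WT did not pass (limma adjusted p = 0.121). The intronic region chr1:37755268-37755576 had a peak in 3 of 3 WT, 0 of 6 KO and 6 of 6 rescue libraries.

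At EPHA3, which also passed the filter through KO1 alone, the KO clones again went opposite ways. It had 781, 690 and 770 bases in WT, 2328, 2265 and 2498 in KO1, 0, 188 and 75 in KO2, and 0 in 5 of 6 rescue libraries (84 in Rescue2 replicate 1). KO1 was above WT by 1.39 ± 0.18 (limma adjusted p = 2.88e-06) and KO2 below by −1.60 ± 0.18 (limma adjusted p = 4.49e-07). Rescue was below KO by −1.82 ± 0.13 (limma adjusted p = 1.68e-10) but not below KO2 alone past the threshold (−0.33, limma adjusted p = 0.14). A peak at its start was called in 3 of 3 WT, 3 of 3 KO1, 2 of 3 KO2 and 0 of 6 rescue libraries. EPHA5 had 1425 to 1779 bases in WT, 2685 to 3150 in KO and 2708 to 3489 in rescue, with KO above WT by 0.82 ± 0.08 (limma adjusted p = 4.98e-08) and rescue above WT by 0.84 (limma adjusted p = 5.29e-08).

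EPHA1, EPHA2, EPHA4 and EPHA8 passed in neither comparison. EPHA8 had no peak at its start in any library. EPHA2, a receptor common in epithelia, had a region upstream, chr1:16159055-16159448, with a peak in 3 of 3 WT, 0 of 6 KO and 6 of 6 rescue libraries. EPHA4 had 2 gained and 2 lost regions in KO, and both gained regions had a peak in 6 of 6 rescue libraries.

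All 5 EphB receptors had a start peak in 15 of 15 libraries, and their differences over gene body and flanks were small. EPHB4 and EPHB6 were higher in KO by 0.21 ± 0.07 and 0.28 ± 0.08 (limma adjusted p = 0.0294 and 0.0146). EPHB1 was lower by −0.26 ± 0.08 (limma adjusted p = 0.0214), and higher in rescue than KO by 0.49 ± 0.07 (limma adjusted p = 6.17e-06). EPHB1 had 10733 to 12364 bases in WT, 8490 to 11110 in KO and 11959 to 15484 in rescue, so rescue lay above every KO library and KO overlapped WT. EPHB2 and EPHB3 passed in neither comparison. With the gene body alone the KO differences were 0.49 for EPHB4, 0.26 for EPHB6 (not called) and −0.27 for EPHB1. EPHB4 was also lower in rescue than KO (−0.15 ± 0.06, limma adjusted p = 0.0448), though not past the threshold against KO2 alone (−0.09, limma adjusted p = 0.378). The KO call of EPHB4 was lost when any of 5 single libraries was left out and its rescue call with any of 8, that of EPHB6 without WT replicate 2 or 3, and that of EPHB1 without WT replicate 1. In KO2 alone EPHB1, EPHB4 and EPHB6 did not pass (limma adjusted p = 0.186, 0.209 and 0.242).

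Of the 7 ephrins among the 46 genes 3 fell in KO and 0 rose, beside 13.1% and 15.1% of all genes. EFNB3, a transmembrane ephrin, had 1904, 1726 and 1867 bases in WT, 1291 to 1324 in KO1, 938 to 1100 in KO2, 1259 to 1588 in Rescue1 and 1469 to 2061 in Rescue2. KO was below WT by −0.56 ± 0.09 (limma adjusted p = 4.12e-05) with no overlap, and rescue above KO by 0.38 ± 0.07 (limma adjusted p = 0.000373). Over the gene body alone, 6.2 kb of a window of 26.2 kb, these differences were −1.26 and 0.87. A region in the first part of EFNB3, chr17:7705591-7705860, had a peak in 3 of 3 WT, 0 of 6 KO and 5 of 6 rescue libraries. EFNA2 and EFNA5 were lower in KO by −0.37 ± 0.13 and −0.22 ± 0.08 (limma adjusted p = 0.0395 and 0.0388), neither past the threshold in KO1 alone, and EFNA1 was higher in rescue than KO by 0.16 ± 0.06 (limma adjusted p = 0.0407), and these calls were lost when any of 6, 7 and 8 single libraries, in that order, was left out. The EFNA1 rescue difference did not pass against KO2 alone (0.09, limma adjusted p = 0.438). Against both KO clones it was 0.60 over the gene body alone. With 150000 peaks in every library the EFNA2 difference was 0.0, and with stricter peaks −0.09, and the rescue difference of EFNB3 fell to 0.17 and lost its call with 150000 peaks. EFNA5 had 5 lost regions, the most of the 46 genes, of which 2 had a peak in no rescue library. EFNA3, EFNA4 and EFNB2 passed in neither comparison.

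Of the 6 semaphorins, SEMA3D and SEMA3A rose in KO and SEMA6A fell. SEMA3D had 1652, 1300 and 1664 bases in WT, 2731, 2553 and 2924 in KO1, 2578, 2203 and 2666 in KO2, and 1352 to 2008 in rescue. KO lay above all WT and rescue libraries. SEMA3D rose in KO by 0.68 ± 0.10 (limma adjusted p = 8.51e-06), rescue was below KO by −0.61 ± 0.08 (limma adjusted p = 2.52e-06) and differed from WT by 0.07 (limma adjusted p = 0.629). SEMA6A, a transmembrane semaphorin, was lower in KO by −0.44 ± 0.09 (limma adjusted p = 0.000713) and still lower than WT in rescue by −0.30 (limma adjusted p = 0.0163).

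SEMA3A, the ligand of NRP1, was higher in KO by 0.23 ± 0.08 (limma adjusted p = 0.0348), while the region printed above was lost in KO and absent in rescue, so single regions and the sum over the gene went opposite ways. SEMA3E and SEMA5A were higher in rescue than KO by 0.29 ± 0.10 and 0.17 ± 0.06 (limma adjusted p = 0.0306 and 0.0383) and did not pass in KO. Against KO2 alone their rescue differences of 0.23 and 0.13 did not pass (limma adjusted p = 0.189 and 0.247). With 150000 peaks in every library the SEMA3A difference was 0.14 and did not pass, and in KO2 alone it was 0.20 (limma adjusted p = 0.124). The calls of SEMA3A, SEMA3E and SEMA5A were lost when any of 5, 7 and 7 single libraries, in that order, was left out. SEMA5A had 3 regions gained in KO, 1 of them with a peak in all rescue libraries. SEMA3C passed in neither comparison. All 6 semaphorins had a start peak in 15 of 15 libraries.

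PLXND1, a plexin that receives SEMA3E, had 3065, 2907 and 2582 bases in WT and 3659 to 4578 in KO, with no overlap, and 3871 to 4449 in rescue. KO exceeded WT by 0.47 ± 0.08 (limma adjusted p = 4.12e-05), and rescue exceeded WT by 0.49 (limma adjusted p = 3.4e-05). Both gained regions of PLXND1 had a peak in 6 of 6 rescue libraries. PLXNA4 and the co-receptor NRP1 were higher in KO by 0.36 ± 0.08 and 0.29 ± 0.08 (limma adjusted p = 0.00213 and 0.0116), and PLXNA2 and NRP2 did not pass. In KO1 alone neither PLXNA4 nor NRP1 passed (0.23 and 0.26, limma adjusted p = 0.0933 and 0.0519), and the NRP1 call was also lost without WT replicate 2 or 3 and with 150000 peaks in every library, where the difference was 0.11. NRP2 had 4 gained and 3 lost regions in KO with a total that moved by 0.12 ± 0.07 (limma adjusted p = 0.246), and 2 regions gained in rescue.

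**Figure D5:**
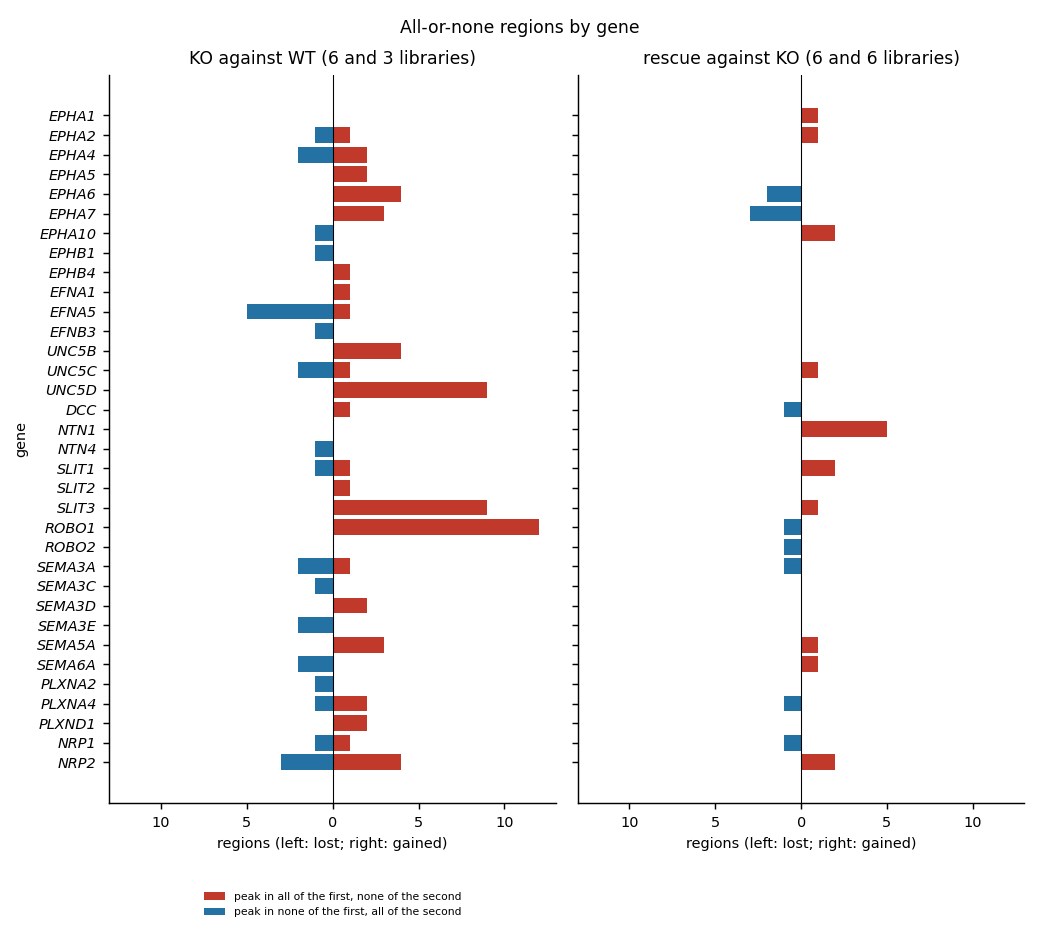
Regions gained (right, red) and lost (left, blue) in each gene, for KO against WT and rescue against KO, counted where every library of the one group and none of the other held a peak. ROBO1 with 12, UNC5D and SLIT3 with 9 each lead the gains in KO, EFNA5 with 5 the losses, and NTN1 with 5 the gains in rescue.

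Region by region, the windows of the 46 genes held 1365 regions, 7 of them in the windows of both genes of a neighbouring pair. In KO 68 were gained (4.98%) and 28 lost (2.05%), beside 4% and 2.47% of the 188627 regions in windows of any protein-coding gene. In rescue against KO 17 were gained (1.25%) and 11 lost (0.806%), beside 1% and 0.906%. These shares are close to those of all regions, so no difference of the 46 genes from other genes can be read from them. Without KO2 replicate 2 or Rescue2 replicate 1 the number lost in rescue was 18 or 17, with no share over all regions counted. A peak in all 15 libraries was found in 395 regions (28.9%), against 38.2% of regions in windows of any gene.

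A peak within 500 bp of the canonical start was called in all 15 libraries at 32 of the 46 genes (69.6%, against 66.2% of all genes), in none at EPHA8 and ROBO3 (4.35%, against 23.3%), and in some libraries at 12. ROBO1 was the gene whose start peak was present in all KO and absent in all WT and rescue libraries. ROBO2 had a start peak in 3 of 3 KO1 libraries and in no other, and PLXNA4 in 0 of 3 WT, 2 of 3 KO1, 3 of 3 KO2, 1 of 3 Rescue1 and 0 of 3 Rescue2 libraries. RefSeq promoters were found for 38 of the 46 genes.

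Clones of one kind differed at several of these genes. KO2 against KO1 had 2 genes higher and 4 lower (2.35% and 0.575% of all genes), NTN1 and ROBO4 among the first and ROBO1, ROBO2, EPHA3 and DCC the second. EPHA3 and DCC had to be high in KO1 to pass the filter. They therefore do not support the count of lower genes, here or with scaling. Rescue2 against Rescue1 had 5 higher (ROBO1, EPHA6, UNC5D, UNC5A and UNC5B) and 0 lower, beside 3.2% and 0.214% of all genes, and Rescue2 replicates 1 and 2 had more bases under peaks in all (65.2 and 64.5 Mb) than any Rescue1 library (53.1 to 58.3 Mb). With bases scaled to each library's total the same 5 genes were higher in Rescue2, and EFNA3, ROBO3 and SEMA3A were lower, beside 3.21% and 3.84% of all genes. For KO2 against KO1 the scaled counts were 3 higher and 9 lower, beside 5.03% and 3.92%, and included all 6 genes called without scaling.

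Outside the 46, a list of 50 further genes of the pathway (other semaphorins, plexins, netrins and intracellular signalling genes) had 49 that could be tested. In KO 9 were higher (18.4%) and 5 lower (10.2%), beside 15.1% and 13.1% of all genes, with a median log2 difference of −0.01. In rescue against KO 17 were higher (34.7%) and 3 lower (6.12%), beside 28.2% and 6.78% of all genes, with a median of 0.13. These shares lie near those of all genes. PLXNC1, a receptor of SEMA7A, was higher in KO by 0.98 ± 0.12 (limma adjusted p = 1.14e-06), RGMA, a ligand of neogenin, by 0.75 ± 0.08 (limma adjusted p = 1.07e-07) and FYN, a kinase downstream of several guidance receptors, by 0.67 ± 0.08 (limma adjusted p = 4.14e-07). PLXNC1 and RGMA were lower in rescue than KO by −0.33 and −0.37 (limma adjusted p = 0.0127 and 0.000112).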

How the data were processed

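The authors mapped paired ATAC-seq reads to hg38 with BWA (0.7.17 per the labels; the study's methods name another release), called peaks in each library with MACS2 2.2.7.1 and compared groups with DiffBind 2.14.0. The deposited lists give each peak's position, an integer score, fold enrichment over background as a ratio, −log10 p and −log10 q (lowest 1.30, a q of 0.05). Those values were not used as levels.

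From the positions, bases under peaks were summed per library over each GENCODE 44 protein-coding gene plus 10 kb on each side, without correction for depth. limma 3.58.1 (R 4.3.3, trend) was fitted to log2(bases + 250) over 5 group means for genes averaging at least 250 bases, with Benjamini-Hochberg adjustment over 18260 genes. Log2 differences are on that scale, which understates changes at low values. Data were also simulated with the spread between libraries of a group and the same change in both KO clones. There 79% of KO changes of 0.5 (log2) and 100% of changes of 1 were recovered for KO against WT, with 13 false calls. No difference between clones of a kind was simulated, so recovery at genes where the clones differ is unknown. Regions needed peaks of 2 libraries and 1 bp of overlap. Named are the called genes, up to 12 a comparison by size, those with 3 or more all-or-none regions or differing between clones, and the rest by role. The genes, lists and tests were chosen with earlier results of these data known. Alternatives were gene body alone, stricter or equal-length lists, scaling, pseudocount 50, no filter, a replicate block, permutation, single clones, other overlap and consensus rules, and each library left out. Deposited peaks on other contigs entered no comparison. A marker gene and a motif that were also examined are not reported here.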

Additional observations from a re-analysis of the deposited data

Results flagged for a closer look

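The 6 genes that differed between KO2 and KO1 (limma, adjusted over all genes) were ROBO2 (log2 difference −4.28, adjusted p = 1.51e-15), EPHA3 (−2.99, adjusted p = 4.48e-11), DCC (−2.18, adjusted p = 1.45e-06), ROBO1 (−1.41, adjusted p = 2.17e-07), NTN1 (0.78, adjusted p = 4.43e-05) and ROBO4 (0.33, adjusted p = 0.0383). The 5 that differed between Rescue2 and Rescue1 were ROBO1 (0.76, adjusted p = 0.00215), EPHA6 (0.58, adjusted p = 0.000558), UNC5D (0.56, adjusted p = 0.00255), UNC5A (0.44, adjusted p = 0.0121) and UNC5B (0.43, adjusted p = 0.00433). EPHA3 and DCC were tested only because of their KO1 level, so their values for KO2 against KO1 are a description of KO1. 

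In 6 of 92 sets of 6 libraries (KO or rescue, 46 genes each) a single library stood apart from the other 5 by more of the range than Dixon's limit for 6 values. For values of a single population chance passes that limit in about 1 of 20 sets. Each set here pools both clones of a kind, so that rate need not hold. A difference between the clones can also hide a library that stands apart. KO2 replicate 3 was high at EPHA1 (2638 bases, the others 1854 to 2033) and EPHB2 (13271, the others 10323 to 11146). KO2 replicate 2 was low at EFNB2 (2048, the others 2436 to 2615), and Rescue2 replicate 3 was low at SEMA3A (6745, the others 8250 to 8978). At EPHA3 and ROBO2 a single rescue library had any peak, with 84 bases in Rescue2 replicate 1 and 109 in Rescue2 replicate 3, the others being at 0.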

How the results depend on the processing

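Of 24 genes called in KO against WT, 14 kept the call under all 18 alternatives other than permutation: DCC, EFNB3, EPHA5, EPHA6, EPHA7, EPHA10, PLXND1, ROBO1, SEMA3D, SEMA6A, SLIT3, UNC5A, UNC5B and UNC5D. In rescue against KO 10 of 18 kept it under all 23 other than permutation: DCC, EPHA6, EPHA7, EPHA10, EPHB1, NTN1, ROBO1, ROBO2, SEMA3D and UNC5D. DCC stands in both lists, but it was tested only because of its KO1 level. Over 845 values of a called gene under an alternative, 734 kept direction and call, 111 kept direction alone and 0 changed direction, permutation not included. The 111 include EFNA2 with 150000 peaks in every library, where the difference rounded to 0.0 and shows no direction. The replicate block gave 16 higher and 7 lower genes in KO and 7 higher and 8 lower in rescue. Libraries with the same number did not deviate together (r from −0.166 to 0.043 over 30 pairs, against −0.108 to 0.158 over 60 pairs of other numbers). Deviations from means of 3 libraries cannot exclude a shared preparation, so whether a number stands for one is unknown. The exact permutation test, two-sided, called 0 genes in KO, where its smallest p of 0.0238 did not pass adjustment for any gene. At an unadjusted p under 0.05 it had 17 higher and 7 lower, beside 2953 and 2836 of all 18260 genes. In rescue it called 3 higher and 7 lower genes after adjustment, beside 3653 and 778 of all 18260.

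Scaling to library totals gave 16 lower genes in KO, beside 40.6% of all genes. Higher genes in rescue numbered 5 against KO2 alone, 4 for Rescue1 alone and 14 for Rescue2 alone. With libraries left out in turn, higher genes in KO ranged from 11 (without WT replicate 3) to 18 and lower from 4 (without WT replicate 1) to 7, and higher genes in rescue from 6 to 20 (without Rescue2 replicate 3) and lower from 8 to 9. Regions gained and lost in KO were 179 and 53 with KO1 alone, 116 and 43 with KO2 alone and 185 and 112 under a majority rule. Those gained and lost in rescue were 43 and 108 against KO1 alone, 22 and 24 against KO2 alone, 27 and 33 for Rescue1 alone, 35 and 16 for Rescue2 alone and 113 and 88 under the majority rule. With 150000 peaks in every library 9 regions were gained in rescue. With libraries left out, regions gained in KO ranged from 71 to 80, lost in KO from 29 to 42, gained in rescue from 17 to 23 and lost in rescue from 11 to 18, the last without KO2 replicate 2 (17 without Rescue2 replicate 1). Fewer libraries or a majority make an all-or-none rule easier to meet. The cause of the other shifts was not tested. Depth limits the calls of missing peaks, since the lists hold no reads.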

Other observations

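ROBO2, ROBO1 and EPHA3 lie on chromosome 3, and bins of 1 Mb around them were summed after the gene values had been seen. From 76000001 to 77000000, within ROBO2, bases under peaks were 1559 to 2088 in WT, 7617 to 8870 in KO1, 120 to 283 in KO2 and 0 in all 6 rescue libraries. From 78000001 to 79000000, within the windows of ROBO1 in part, KO1 had 4894 to 5623 and every other library 84 to 617. The bin from 75000001 to 76000000, which holds the first part of ROBO2, had 7478 to 8021 in WT and 8682 to 8916 in KO1. In KO2 it had 6337 to 7131, in Rescue1 7619 to 8225 and in Rescue2 8966 to 11193. From 80000001 to 81000000, beyond both genes, WT had 3822 to 4129, KO1 4761 to 5121 and KO2 5155 to 6528. Rescue1 had 2269 to 2365 there and Rescue2 2585 to 4033. The bin from 81000001 to 82000000, also beyond both genes, had 8070 to 11521 over all libraries. In the bin of EPHA3, 89000001 to 90000000, WT had 878 to 1038, KO1 3133 to 3685, KO2 252 to 339 and rescue 0 to 215, while the bin before it held 3463 to 5471 in all libraries. In that earlier bin KO1 had 4736 to 5471 and WT 3897 to 4426. These are values of the peak lists with no test.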
